A study of Mus musculus with 14 samples.

Results

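Eosinophils are granulocytes that mature in bone marrow under interleukin-5 and enter tissue along gradients of eotaxin chemokines, and in allergic lungs they are among the cells recruited most. Their granules hold major basic protein, eosinophil peroxidase and small ribonucleases, all strongly charged proteins that are released onto parasites and epithelium. At the surface they carry the alpha chain of the interleukin-5 receptor, the eotaxin receptor CCR3 and, in mice, Siglec-F, a sialic acid-binding inhibitory receptor. The genes described here are the 8 of 54347 in each table whose symbol is Prg2, Epx, Ear1, Ear2, Ear6, Siglecf, Ccr3 or Il5ra. They were chosen for these roles, and all 8 were matched by symbol and identifier.

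RNA sequencing covered 14 lung libraries of C57BL/6 mice, all of which had inhaled an extract of the mould Alternaria alternata, an allergen, at 2 mg in 40 µl per dose on 4 days. In the chimera experiment, irradiated recipients carrying a gain of function (GOF) of human JAK1, a kinase of cytokine receptors (n = 2), were set against irradiated wild-type (WT) recipients (n = 2), and both had received 1e+07 WT bone marrow cells. In the intrathecal experiment, WT mice given resiniferatoxin (RTX), a TRPV1 agonist that ablates sensory neurons, at 25 ng per mouse on each of 2 days (n = 3) were set against mice given 10 µl saline (n = 2), which addressed spinal visceral afferents. In the subcutaneous experiment, WT mice given RTX at 30, 70 and 100 µg/kg on 3 days (n = 3) were set against mice given 100 µl saline (n = 2), which addressed vagal and spinal visceral afferents together. Blood cells of such chimeras renew from donor marrow while radioresistant lung cells keep the recipient's genotype, and no share of donor cells, age or sex was given in the sources used here. The labels do not tie a library to a mouse, so the spread that p-values rest on is that among libraries and may be partly technical.

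Libraries held 18198872 to 24393000 estimated counts. Markers of lung epithelium and endothelium, Sftpc and Ager among them, summed to 17390 to 31910 counts per 1e+06 counts of the library (CPM) over all groups, so the tissue label held. This sum was 26630 to 27760 CPM in GOF recipients, against 21420 to 23470 CPM in WT recipients. It was 17390 to 20130 CPM in subcutaneous RTX lungs, against 23790 to 31910 CPM in their saline lungs. Neither pair of groups overlapped, while the intrathecal groups did. The part of these differences in the eosinophil values was not tested. Libraries of a group differed in 2 transcripts that are not eosinophil genes, Rps3a2 and Hmga2, and were placed in 3 states by them. Both GOF libraries and WT library 2 were in state B, WT library 1 in state A. All 3 intrathecal RTX libraries were in state B and both intrathecal saline libraries in state A, so state and treatment cannot be told apart there. Subcutaneous RTX libraries were in states C, A and A, and their saline libraries in B and C. Expression of the human JAK1 allele and loss of neurons were not analysed here.

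The 8 genes lie on 6 chromosomes of GRCm38, all protein-coding in GENCODE M21. Prg2 is at chr2:84980461-84983632 on the plus strand, Epx at chr11:87864000-87875536 on the minus strand, Siglecf at chr7:43351341-43359531 on the plus strand, Ccr3 at chr9:124021972-124031689 on the plus strand and Il5ra at chr6:106710357-106749037 on the minus strand. The ribonuclease genes share chromosome 14, with Ear1 at chr14:43818765-43875517 on the minus strand, Ear2 at chr14:44102654-44103534 on the plus strand and Ear6 at chr14:51853699-51854643 on the plus strand.

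How far reads can be assigned to 1 ribonuclease gene depends on how alike the copies are, so the first 120 bases of their coding sequences in GENCODE M21 are shown, with the 16 positions at which the copies differ in capitals.
Ear1: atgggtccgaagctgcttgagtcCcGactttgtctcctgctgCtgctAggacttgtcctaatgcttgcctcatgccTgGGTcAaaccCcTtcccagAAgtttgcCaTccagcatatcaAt
Ear2: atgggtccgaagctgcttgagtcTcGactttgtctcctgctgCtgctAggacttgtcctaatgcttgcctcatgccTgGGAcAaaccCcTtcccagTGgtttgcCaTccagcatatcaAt
Ear6: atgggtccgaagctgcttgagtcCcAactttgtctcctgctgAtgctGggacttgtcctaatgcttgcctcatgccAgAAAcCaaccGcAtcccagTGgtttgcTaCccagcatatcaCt

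In this stretch Ear1 and Ear2 differ at 4 bases, Ear1 and Ear6 at 15, and Ear2 and Ear6 at 13. Over the whole coding sequence Ear1 and Ear2 are 95.7% identical, Ear2 and Ear6 88.3%, and Ear1 and Ear6 87.4%. Of the 31-base words in Ear1 transcripts, 73.7% also occur in another annotated gene, most often the pseudogene Ear-ps9 (48.6%), and of those in Ear2, 60.5%, most often in Ear1 (40.2%). The share is 8.48% for Ear6, 4.30% for Il5ra, 0.872% for Siglecf and 0.524% for Ccr3, and it is 0 for Prg2 and Epx. Values of Ear1 and Ear2 are therefore uncertain, since Salmon divides shared reads between copies by estimate, while Prg2 and Epx share no such word.

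The 250 bases before the RefSeq start of Ear1 and Ear2 are 99.2% identical over paired positions. For Ear1 this start differs from that of the GENCODE M21 gene, which reaches chr14:43875517 on the minus strand. The Ear1 window therefore lies inside the gene as GENCODE places it. The last 120 bases before the RefSeq start (GRCm38.p6, given 5′ to 3′ on the gene's strand) are shown for this pair and for the receptor genes Ccr3 and Il5ra, with matches to binding motifs of eosinophil lineage factors in capitals.
Ear1, chr14:43819640-43819759, minus strand: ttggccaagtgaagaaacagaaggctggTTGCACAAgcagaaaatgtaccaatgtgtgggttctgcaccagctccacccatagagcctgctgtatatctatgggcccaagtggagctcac
Ear2, chr14:44102534-44102653, plus strand: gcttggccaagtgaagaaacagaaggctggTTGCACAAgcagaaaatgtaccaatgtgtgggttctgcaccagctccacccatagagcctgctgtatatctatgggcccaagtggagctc
Ccr3, chr9:124021851-124021970, plus strand: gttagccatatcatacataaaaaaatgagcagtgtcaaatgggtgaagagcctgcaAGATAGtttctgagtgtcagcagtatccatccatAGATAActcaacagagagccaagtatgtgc
Il5ra, chr6:106749038-106749157, minus strand: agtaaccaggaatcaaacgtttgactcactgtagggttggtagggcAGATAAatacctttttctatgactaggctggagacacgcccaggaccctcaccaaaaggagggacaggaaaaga

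GATA-1, a zinc-finger factor required for eosinophil development, binds letters such as AGATAA and AGATAG, and these were searched, together with TGATAA and also TGATAG, on both strands of 250 bases before the start. Ccr3 held 2 matches, starting 64 and 30 bases before its start, and Il5ra 1, at 74 bases. The windows of Epx, Siglecf, Ear1, Ear2 and Ear6 held 0, and of 32851 RefSeq windows 26.5% held at least 1. Letters bound by C/EBP factors, TTNNGNAA on either strand, which do not overlap the GATA letters shown, occurred at 92 bases in Ear1, 90 in Ear2, 112 in Ear6, 189 in Ccr3, and 123 and 216 in Siglecf. They were found in 36.9% of the windows. Of the 8 genes 7 had a RefSeq window, all but Prg2, and a match of letters does not show binding.

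Levels were also set side by side across the 3 tables, which have no common control and were tested apart. The tables differed in other ways, as in Xist, transcribed from the inactive X chromosome, which was at 62.9 to 132 CPM in the chimera libraries and at 0.913 to 5.11 CPM in the 10 RTX and saline libraries. Of the 7 genes with a mean of at least 1 CPM, all but Epx, 7 had their lowest group mean in GOF recipients and their highest in subcutaneous RTX lungs, where 13.6% of 15536 such genes did. In 6 of the 7, all but Ear6, both GOF libraries were below every other library (9.09% of such genes), and in 6, all but Ear1, the 3 subcutaneous RTX libraries were above every other library (5.77%). These orders are descriptions. The sum over the 8 genes was 50.5 and 44.8 CPM in GOF recipients, against 75.5 and 123 CPM in WT recipients. It was 205, 184 and 175 CPM in intrathecal RTX lungs, against 169 and 174 CPM in intrathecal saline lungs, and 386, 348 and 389 CPM in subcutaneous RTX lungs, against 232 and 302 CPM in their saline lungs. In all 3 experiments the 2 groups did not overlap in this sum, of which Ear2 made up 66.2% to 83.0%. Without Ear1 and Ear2 the intrathecal groups overlapped, at 54.6, 34.9 and 32.2 CPM in RTX lungs against 34.4 and 38.7 CPM in saline lungs. The chimera groups and the subcutaneous groups still did not overlap in that smaller sum.

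**Figure D1:**
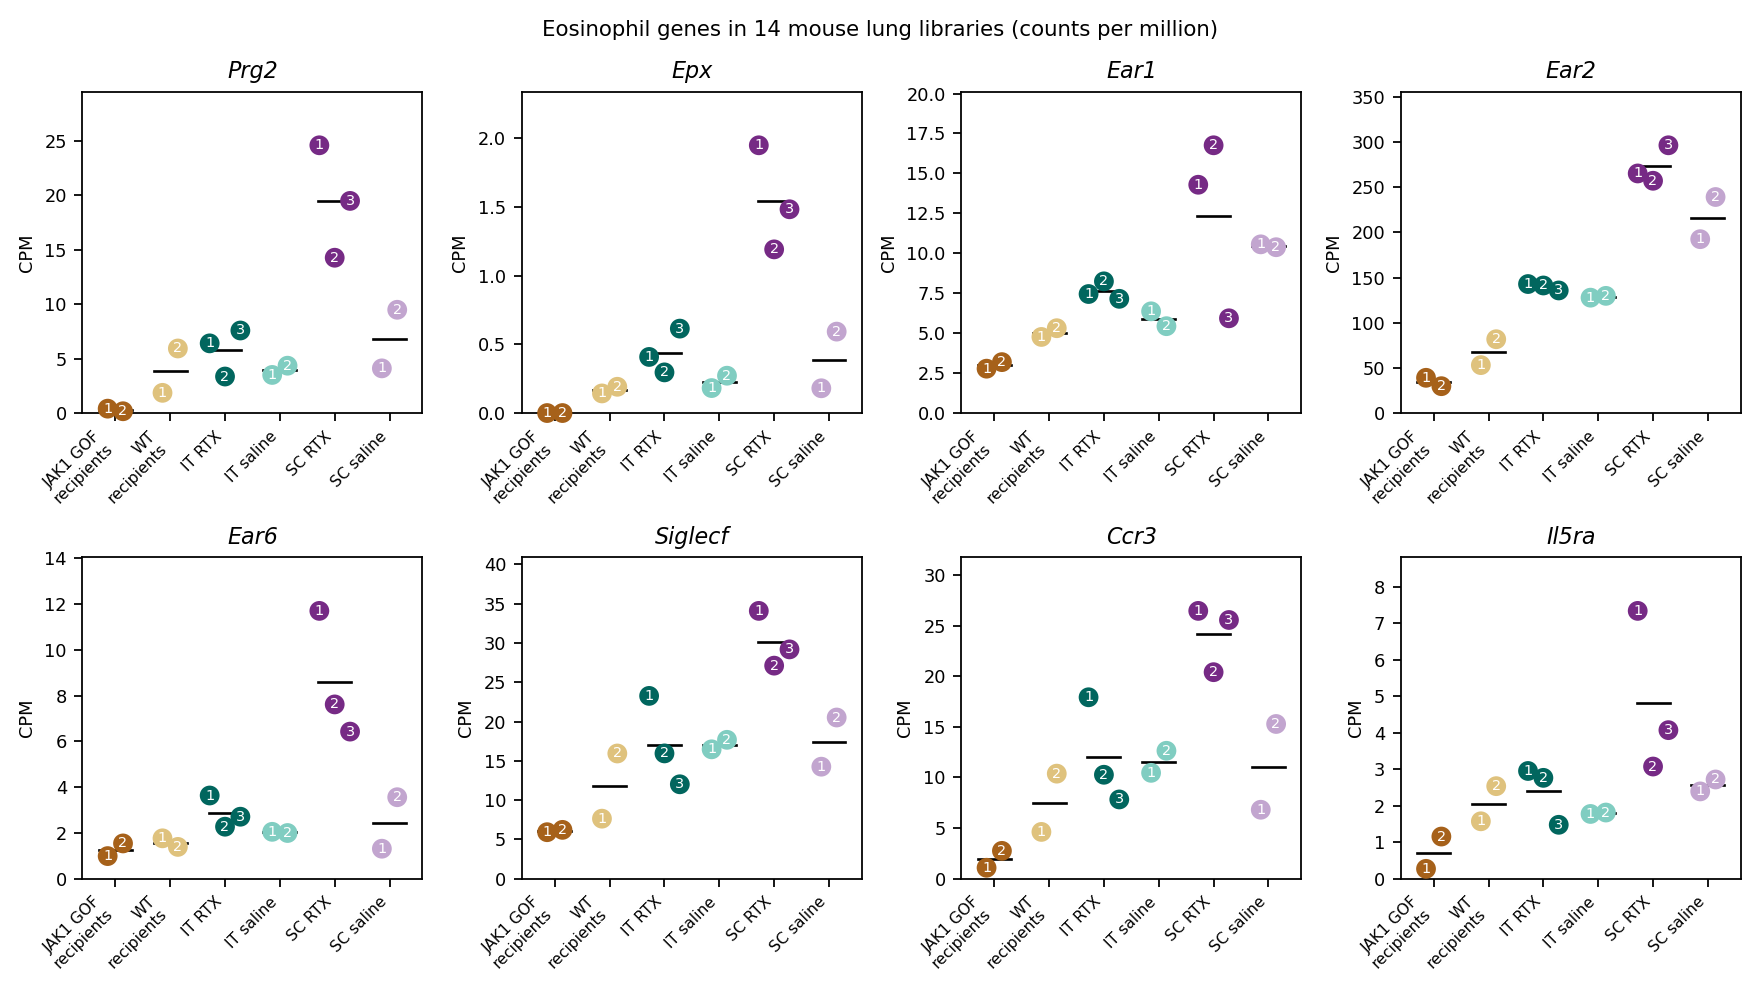
Level of each eosinophil gene in CPM of the library total (vertical axes, linear, from 0) in the 6 groups; each numbered point is 1 library, the number is its replicate, and the black line is the group mean. Points of subcutaneous (SC) RTX lungs stand highest in every panel except for library 3 in the Ear1 panel (5.93 CPM), and points of GOF recipients stand lowest except in the Ear6 panel.

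Per kilobase of exon, Ear2 was the most abundant of the 8 in every group, at 380 ± 28.9 CPM per kb in subcutaneous RTX lungs (SD, n = 3). In that group Prg2 followed at 23.2 ± 6.16 and Ear1 at 16.9 ± 7.77 CPM per kb, which did not differ beyond their spread. Siglecf at 10.8 ± 1.28, Ear6 at 9.08 ± 2.93 and Ccr3 at 7.38 ± 1.00 CPM per kb each overlapped the next within their SDs, and Il5ra at 1.35 ± 0.624 and Epx at 0.563 ± 0.140 CPM per kb came last. In GOF recipients Prg2 was at 0.339 ± 0.201 CPM per kb (SD, n = 2), below Ear1 at 4.09 ± 0.397, Siglecf at 2.17 ± 0.0753 and Ear6 at 1.34 ± 0.414 CPM per kb. Ccr3, at 0.584 ± 0.361 CPM per kb there, did not differ from Prg2 beyond the spread.

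**Figure D2:**
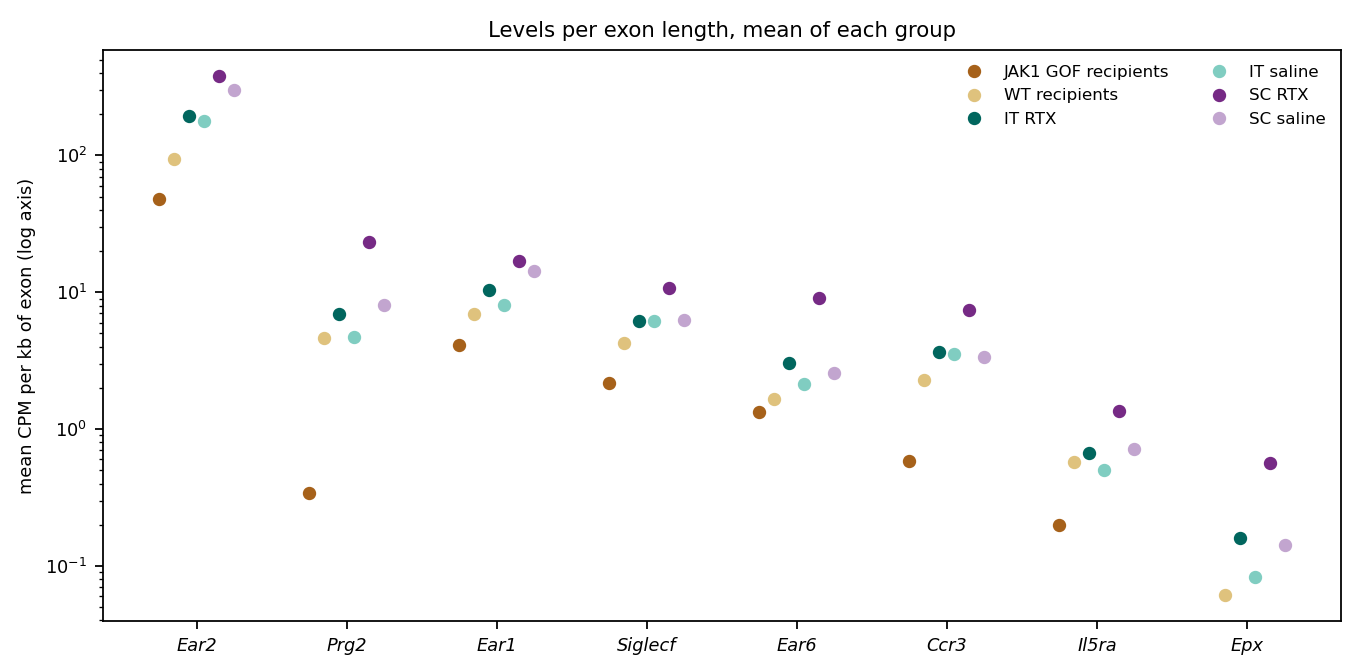
Mean level per exon length of each gene (CPM per kb, log axis) in the 6 groups, with genes ordered by their level in subcutaneous (SC) RTX lungs. Ear2 stands apart at 380 CPM per kb in that group, Prg2 spreads over the widest range between groups, and the point of Epx in GOF recipients is not drawn because its count was 0.

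Prg2 encodes major basic protein, the main protein of the eosinophil granule core. It had 0.403 and 0.165 CPM in GOF recipients, from 9 and 3 counts, against 1.86 and 5.93 CPM in WT recipients, from 39 and 124 counts. Both GOF libraries were below both WT libraries, and the WT libraries differed from each other by more CPM than the lower of them did from the GOF libraries. The log2 fold change was −3.70 ± 0.69 (SE), and its adjusted p of 0.0594 in edgeR's quasi-likelihood test, with Benjamini-Hochberg adjustment over all genes tested, missed the threshold of 0.05. Prg2 passed the filter on low counts there only through the WT libraries. Leaving out WT library 1 moved it to −4.32, leaving out WT library 2 to −2.62 and leaving out GOF library 1 to −4.51.

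After intrathecal RTX, Prg2 was at 6.40, 3.36 and 7.58 CPM, against 3.50 and 4.35 CPM in intrathecal saline lungs. The groups overlapped, because RTX library 2 was below both saline libraries. The log2 fold change was 0.58 ± 0.33 (SE; adjusted p = 0.538 by edgeR). After subcutaneous RTX, Prg2 was at 24.6, 14.3 and 19.5 CPM, against 4.11 and 9.49 CPM in the saline lungs. All 3 RTX libraries were above both saline libraries, with a log2 fold change of 1.51 ± 0.41 (SE; adjusted p = 0.168 by edgeR), a 2.84-fold higher level. It was 2.23 without saline library 2 (adjusted p = 0.0360) and 1.02 without saline library 1. Its adjusted p ranged between 0.00156 and 0.541 over the 16 alternatives.

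Epx encodes eosinophil peroxidase, a haem enzyme that makes hypohalous acids. It had 0 counts in both GOF libraries, which allows up to 3 counts in each, and 3 and 4 counts in the WT libraries, too few to test or to give a fold. In intrathecal RTX lungs it had 9, 6 and 15 counts (0.409, 0.296 and 0.615 CPM), against 4 and 6 counts (0.182 and 0.272 CPM) in saline lungs, a separation that rests on depth for the library with 6 counts and that was not tested because the counts missed the filter. In subcutaneous RTX lungs Epx had 42, 26 and 31 counts, against 4 and 12 counts in saline lungs. The groups did not overlap, but Epx would not have passed the filter on low counts by its saline libraries, so its test is not used.

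The Ear genes encode eosinophil-associated ribonucleases, a family that has multiplied in mice, and transcripts of Ear1 and Ear2 are also known from alveolar macrophages. Ear2 had 39.0 and 29.8 CPM in GOF recipients, against 53.1 and 81.8 CPM in WT recipients. The groups did not overlap, and the log2 fold change was −0.96 ± 0.24 (SE; adjusted p = 0.175 by edgeR). Ear1 had 2.78 and 3.19 CPM in GOF recipients, against 4.76 and 5.31 CPM in WT recipients, also without overlap (log2 fold change −0.75 ± 0.27, SE; adjusted p = 0.280 by edgeR). Ear6 had 0.985 and 1.54 CPM in GOF recipients, against 1.76 and 1.39 CPM in WT recipients, and was the 1 gene of the 8 whose groups overlapped there (log2 fold change −0.32 ± 0.41, SE).

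In the intrathecal experiment Ear2 was at 143, 141 and 136 CPM in RTX lungs, against 128 and 130 CPM in saline lungs. Ear1 was at 7.45, 8.24 and 7.15 CPM in RTX lungs, against 6.37 and 5.44 CPM in saline lungs. Ear6 was at 3.63, 2.27 and 2.71 CPM in RTX lungs, against 2.05 and 1.99 CPM in saline lungs. All 3 ribonuclease genes were thus higher in each RTX library than in either saline library, by log2 fold changes of 0.14 ± 0.07 for Ear2, 0.38 ± 0.17 for Ear1 and 0.52 ± 0.28 for Ear6 (SE). Their adjusted p-values in edgeR's test were 0.503, 0.428 and 0.512 in that order.

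Differences between the ribonuclease genes were not tested. In the subcutaneous experiment Ear6 was at 11.7, 7.61 and 6.43 CPM in RTX lungs, against 1.31 and 3.56 CPM in saline lungs, without overlap. Ear6 thus had a log2 fold change of 1.81 ± 0.46 (SE), a 3.51-fold higher level, with an adjusted p of 0.146 in edgeR's test, and the change became 2.7 without saline library 2 and 1.25 without saline library 1. Ear2 was at 265, 257 and 297 CPM in RTX lungs, against 193 and 239 CPM in saline lungs, without overlap but with a log2 fold change of 0.32 ± 0.11 (SE; adjusted p = 0.199 by edgeR). Ear1 was at 14.3, 16.8 and 5.93 CPM in RTX lungs, against 10.6 and 10.4 CPM in saline lungs, so that its groups overlapped through RTX library 3 (log2 fold change 0.22 ± 0.42, SE). In that library the ratio of Ear2 to Ear1 was 50.0, against 18.6 and 15.4 in the other RTX libraries and 18.3 and 23.1 in the saline libraries, while Ear2 itself was at its highest there. How reads of these copies were divided in that library was not tested, and without it the log2 fold change of Ear1 was 0.55.

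Siglecf encodes Siglec-F, which is carried by eosinophils and also by alveolar macrophages. It had 5.91 and 6.21 CPM in GOF recipients, against 7.63 and 15.9 CPM in WT recipients. The groups did not overlap, with WT library 1 close above the GOF libraries, and the log2 fold change was −0.95 ± 0.33 (SE; adjusted p = 0.318 by edgeR), or −0.31 without WT library 2. In intrathecal RTX lungs it was at 23.3, 15.9 and 12.0 CPM, against 16.5 and 17.7 CPM in saline lungs, where the saline libraries lay inside the range of the RTX libraries (log2 fold change 0.01 ± 0.25, SE, or −0.002 when scaled by total counts alone). In subcutaneous RTX lungs it was at 34.1, 27.1 and 29.2 CPM, against 14.3 and 20.5 CPM in saline lungs. These groups did not overlap, with a log2 fold change of 0.78 ± 0.17 (SE), and its adjusted p of 0.127 in edgeR's test was the lowest of the 8 genes there.

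Ccr3 encodes the receptor for eotaxins, through which eosinophils are drawn into tissue. It had 1.08 and 2.75 CPM in GOF recipients, against 4.62 and 10.4 CPM in WT recipients. Both GOF libraries were below both WT libraries, with a log2 fold change of −1.99 ± 0.56 (SE; adjusted p = 0.249 by edgeR), and values without 1 library ranged between −2.79 and −1.27. In intrathecal RTX lungs Ccr3 was at 17.9, 10.3 and 7.83 CPM, against 10.5 and 12.6 CPM in saline lungs, with overlap (log2 fold change 0.07 ± 0.34, SE). In subcutaneous RTX lungs it was at 26.5, 20.4 and 25.6 CPM, against 6.81 and 15.3 CPM in saline lungs. The groups did not overlap, the log2 fold change was 1.12 ± 0.34 (SE; adjusted p = 0.191 by edgeR), and it was 1.81 without saline library 2 and 0.64 without saline library 1.

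Il5ra encodes the alpha chain that binds interleukin-5 and signals through the common beta chain. It had 0.269 and 1.15 CPM in GOF recipients, from 6 and 21 counts, against 1.57 and 2.54 CPM in WT recipients. The groups did not overlap, and the log2 fold change was −1.56 ± 0.59 (SE; adjusted p = 0.337 by edgeR), with −2.90 without GOF library 2 and −0.83 without GOF library 1. Il5ra passed the filter on low counts there only through the WT libraries. In intrathecal RTX lungs it was at 2.95, 2.76 and 1.48 CPM, against 1.77 and 1.81 CPM in saline lungs, with overlap through RTX library 3 (log2 fold change 0.43 ± 0.34, SE). In subcutaneous RTX lungs it was at 7.34, 3.07 and 4.07 CPM, against 2.39 and 2.72 CPM in saline lungs. The groups did not overlap, RTX library 1 was far above the others, and the log2 fold change of 0.90 ± 0.38 (SE; adjusted p = 0.270 by edgeR) became 0.47 without that library.

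Prg2 and Il5ra passed the filter in the chimera experiment through the WT libraries, where they were higher, and are left out of its counts here. Of the other 5 genes tested, 4 were lower in GOF than in WT recipients without overlap, where 23.0% of all genes tested were lower without overlap. Of all 7 genes tested 0 passed edgeR's test at an adjusted p of 0.05, where 124 of 17298 genes tested (0.717%) did. At an unadjusted p under 0.05 there were 4 of the 5, and 2001 of all genes tested (11.6%). DESeq2 called Ear2 and Ccr3 of the 5, and Prg2 of those left out, among 309 genes of 17298 tested. Limma voom called 0 of the 7 among 45 genes. The median log2 fold change was −0.95 over the 5 genes and 0.0005 over all genes tested. Leaving out WT library 1 left 3 libraries of state B and a lone WT sample assumed to vary like the GOF pair. The log2 fold change was then −1.40 for Siglecf, −2.48 for Ccr3, −1.25 for Ear2, −0.84 for Ear1 and −0.15 for Ear6.

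In the intrathecal experiment 3 of the 7 genes tested were higher in RTX lungs without overlap, where 13.5% of all genes tested were. Of these 7 genes 0 passed edgeR's test, where 54 of 17360 genes tested (0.311%) did. At an unadjusted p under 0.05 there was 1 of the 7, Ear1, and 1993 of all genes tested (11.5%). DESeq2 called 0 of the 7 among 247 genes, and limma voom 0 among 37. The median log2 fold change was 0.38 over the 7 genes and 0.0075 over all genes tested.

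In the subcutaneous experiment 6 of the 7 genes other than Epx were higher in RTX lungs without overlap, where 20.6% of all genes tested were. Of the 8 genes 0 passed edgeR's test, where 0 of 17363 genes tested (0%) did. At an unadjusted p under 0.05 there were 6 of the 7 and 3153 of all genes tested (18.2%). DESeq2 called 4 of the 8 (Prg2, Siglecf, Ear6 and Ccr3) among 744 genes, and limma voom 0 among 0. The median log2 fold change was 0.90 over the 7 genes and −0.0045 over all genes tested. Leaving out saline library 2 gave 6 calls among the 8 (all but Ear1 and Il5ra, so with Epx) and 871 over all genes, with a lone saline sample assumed to vary like the RTX libraries, and leaving out saline library 1 gave 0 and 1. Saline library 2 was thus the library on which these calls turned.

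**Figure D3:**
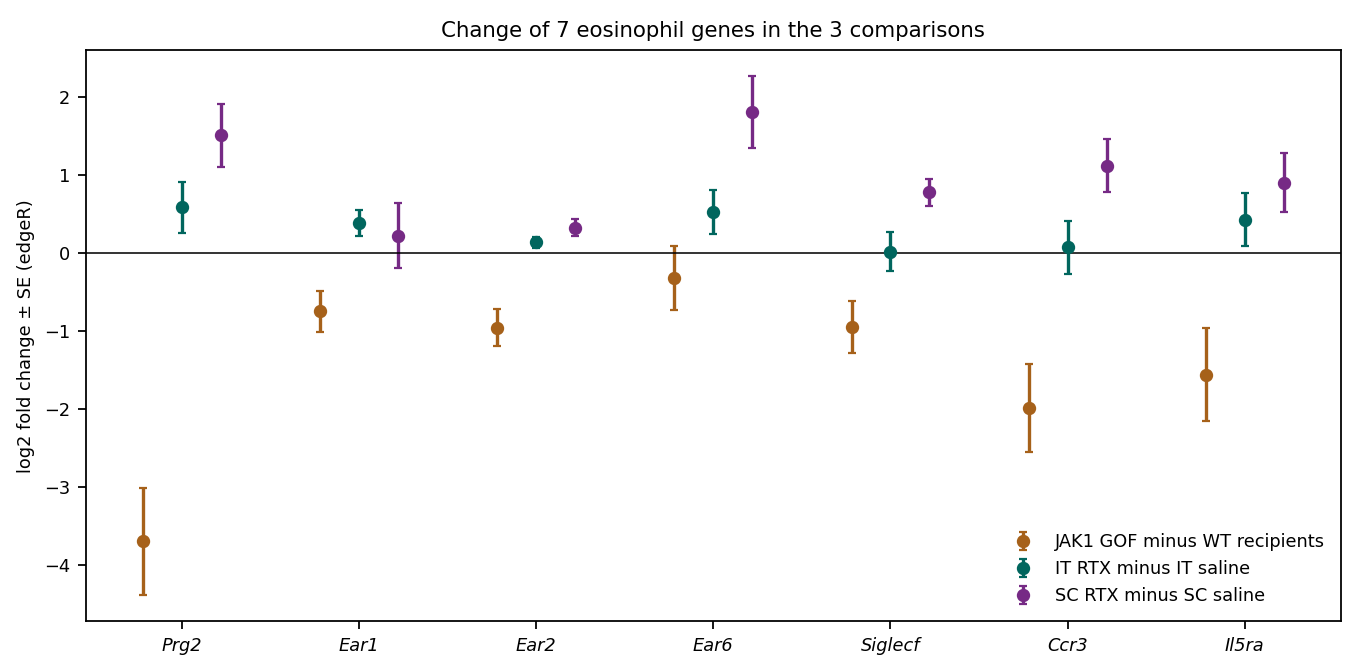
Log2 fold change (vertical axis) of 7 eosinophil genes in the 3 comparisons, with standard errors of edgeR's fit as bars. All values are below 0 for GOF minus WT recipients and above 0 for both RTX routes (Siglecf after intrathecal RTX, here 0.01, is −0.002 when scaled by total counts), at most 1.81 (Ear6, SC RTX) and at least −3.70 (Prg2, GOF), and Epx is not drawn because its counts were too low outside SC RTX lungs.

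Whether the effects differed between experiments was tested as a difference of 2 fold changes in 1 fit. The subcutaneous RTX effect minus the JAK1 GOF effect was 5.19 ± 1.03 (log2, SE) for Prg2, and Prg2 was the 1 gene of the 8 that passed (adjusted p = 0.0481 by edgeR), where 519 of 18074 genes tested (2.87%) did. Its GOF effect rests on 9 and 3 counts in GOF recipients, and Prg2 passed the filter of the chimera fit only through the WT libraries. The difference was 1.28 ± 0.29 for Ear2 (adjusted p = 0.0544), 1.73 ± 0.44 for Siglecf (0.0710), 3.11 ± 0.77 for Ccr3 (0.0773), 2.12 ± 0.66 for Ear6 (0.103), 2.46 ± 0.79 for Il5ra (0.114) and 0.97 ± 0.55 for Ear1 (0.333) by edgeR, with SE throughout. Il5ra, like Prg2, passed the filter of the chimera fit only through the WT libraries. Epx passed that of the subcutaneous fit only through the RTX libraries and was not tested in the chimera experiment. Its test is therefore not used here either, and no fold is given for it because both GOF libraries were at 0. At an unadjusted p under 0.05 there were 4054 of all genes tested (22.4%). The adjusted p of Prg2 ranged between 2.16e-37 and 0.171 over 19 alternatives, of which 10 called it. Of the 9 fits that left out 1 library each, those without WT library 1 and without saline library 2 called 4 and 5 of the 8 genes, and the other 7 called 0.

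The subcutaneous RTX effect minus the intrathecal RTX effect passed for 0 of the 8 genes in edgeR's test, where 10 of 17972 genes tested (0.0556%) did. Ear6 had the only unadjusted p under 0.05 among the 8, with a difference of 1.29 ± 0.56 (log2, SE; adjusted p = 0.315 by edgeR), beside 2735 of all genes tested (15.2%). DESeq2 called 0 of the 8 among 317 genes and limma voom 0 among 11. The intrathecal RTX effect minus the JAK1 GOF effect passed for 0 of the 7 genes tested in edgeR's test, where 6 of 17993 genes (0.0333%) did. Its value for Prg2 was 4.28 ± 0.90 (log2, SE; adjusted p = 0.128 by edgeR). At an unadjusted p under 0.05 there were 5 of the 7 and 2126 of all genes tested (11.8%). Among the 5, Prg2 and Il5ra passed the filter of the chimera fit only through the WT libraries, and the others were Ear1, Ear2 and Ccr3. DESeq2 called 2 of the 7, Prg2 and Ear2, among 289 genes and limma voom 0 among 5.

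**Figure D4:**
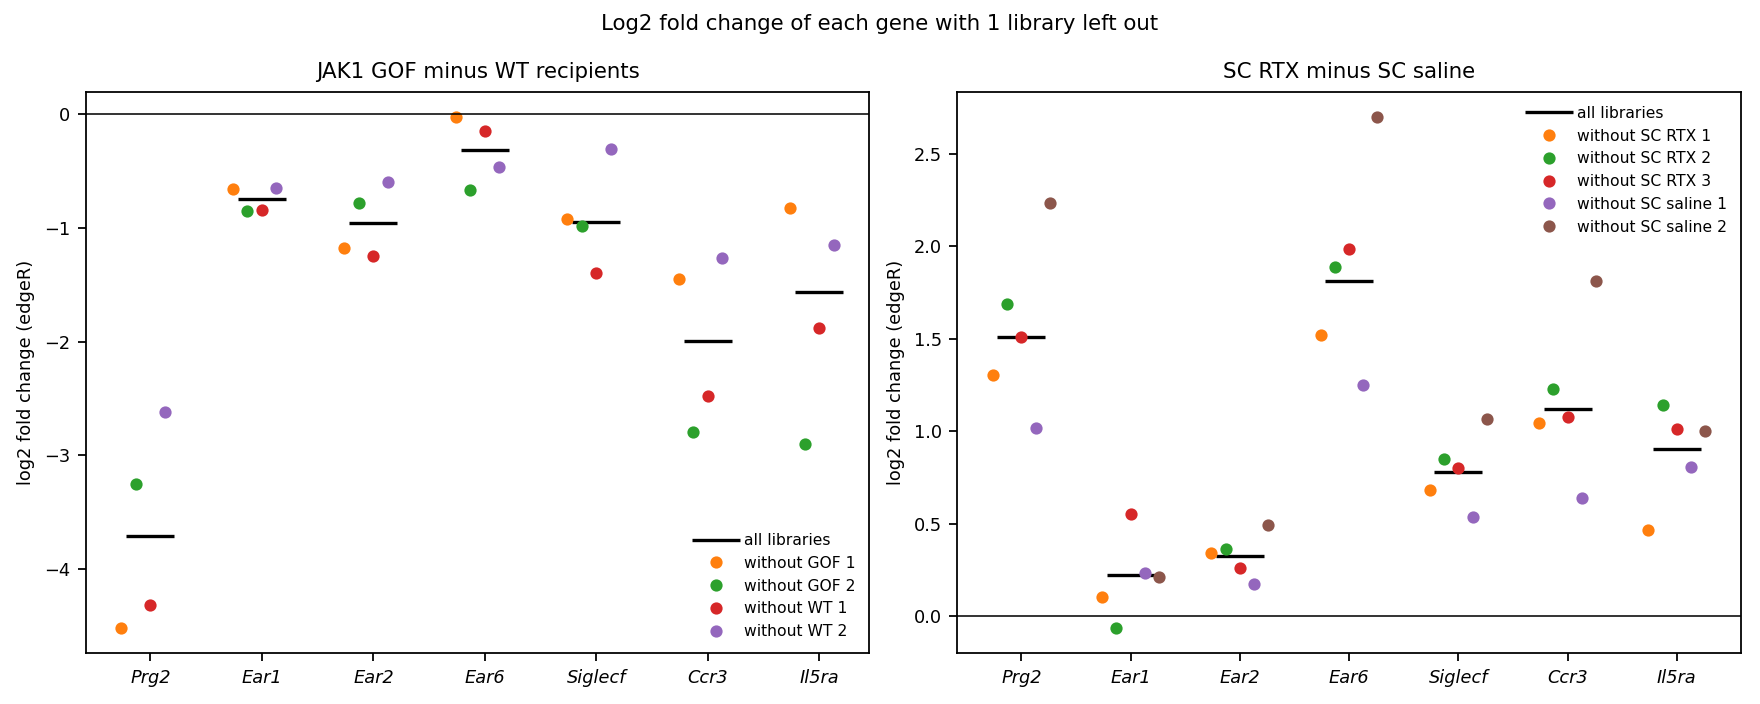
Log2 fold change of 7 eosinophil genes, all but Epx (vertical axes), with all libraries (black bars) and with 1 library left out (coloured points), for GOF minus WT recipients (left) and subcutaneous (SC) RTX minus saline (right). In the right panel points without SC saline library 2 are the highest for Prg2 (2.23) and Ear6 (2.7), and Ear1 without RTX library 2 (−0.061) is the only point of either panel on the other side of 0.

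Ratios within a library do not depend on its scaling. Prg2 relative to Siglecf, as a ratio of CPM, was 0.0682 and 0.0266 in GOF recipients, against 0.243 and 0.372 in WT recipients. It was 0.722, 0.526 and 0.668 in subcutaneous RTX lungs, against 0.288 and 0.463 in saline lungs. In both experiments the groups did not overlap, and in the intrathecal experiment they did, at 0.275, 0.211 and 0.631 in RTX lungs against 0.213 and 0.246 in saline lungs, where RTX library 3 stood apart. The ratios in GOF recipients rest on 9 and 3 counts of Prg2. How often other pairs of genes part without overlap was not counted. Ccr3 relative to Siglecf was 0.182 and 0.443 in GOF recipients, against 0.605 and 0.652 in WT recipients. It was 0.771, 0.644 and 0.652 in intrathecal RTX lungs, against 0.635 and 0.715 in saline lungs, with overlap. It was 0.777, 0.753 and 0.876 in subcutaneous RTX lungs, against 0.478 and 0.746 in saline lungs, where the lowest RTX library was just above the highest saline library.

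In lung RNA, fewer eosinophils and less RNA per eosinophil cannot be told apart. Summed levels of markers of other cells were compared between the same groups. Summed over 12 alveolar macrophage markers, none at 0 in all libraries, levels were 904 to 954 CPM in GOF recipients, against 1789 to 2478 CPM in WT recipients, and 5281 to 6364 CPM in subcutaneous RTX lungs, against 4310 to 4794 CPM in saline lungs. Much of that sum was Chil3, a chitinase-like protein, which averaged 359 CPM in GOF recipients, 1380 CPM in WT recipients, 4694 CPM in subcutaneous RTX lungs and 3552 CPM in saline lungs. In the chimera comparison 2 of the 11 markers tested fell, Chil3 by 1.94 and Itgax, an integrin chain, by 1.24 on the log2 scale (adjusted p = 0.00547 and 0.0430 by edgeR), and 0 rose. Of the 11, 5 had positive values there, the highest 1.36 for Cidec (adjusted p = 0.0505 by edgeR). In the subcutaneous comparison 0 of 11 passed edgeR's test and 6 had positive values. The 5 with an unadjusted p under 0.05 were Ctsk, Atp6v0d2, Itgax and Chil3, at 0.39 to 0.50, and Car4 at −0.54 (log2), beside 3153 of all genes tested. The part of macrophages in the values of Siglecf, Ear1 and Ear2 was not tested.

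Of 10 neutrophil markers, summed levels were 410 to 505 CPM in GOF recipients, against 457 to 552 CPM in WT recipients, with overlap, and 220 to 338 CPM in subcutaneous RTX lungs, against 139 to 217 CPM in saline lungs. In the chimera comparison 1 of the 9 neutrophil markers tested passed, Retnlg, lower by 1.21 on the log2 scale (adjusted p = 0.0220 by edgeR). Ltf, lactoferrin, averaged 213 CPM in GOF recipients and 151 CPM in WT recipients (adjusted p = 0.161 by edgeR). Of these 9, 1 had a positive value (median −0.43) and 5 an unadjusted p under 0.05 by edgeR. In the subcutaneous comparison 8 of 8 tested were positive (median 0.72), 4 with an unadjusted p under 0.05 by edgeR, and 0 passed. Over all genes tested, 8660 of 17298 were positive in the chimera and 8549 of 17363 in the subcutaneous comparison. Unadjusted p-values under 0.05 by edgeR were held by 11.6% and 18.2% in that order. Mast cell and basophil markers summed to 76.9 to 92.1 CPM in GOF recipients, against 70.3 to 100.3 CPM in WT recipients, with overlap, and to 158 to 172 CPM in subcutaneous RTX lungs, against 133 to 138 CPM in saline lungs. Most of that sum was Hdc, which averaged 77.9 CPM in GOF recipients and 80.45 CPM in WT recipients. In the subcutaneous experiment Hdc averaged 155 CPM in RTX lungs and 130 CPM in saline lungs. Positive values were held by 5 of 7 tested markers in the chimera comparison and 8 of 9 in the subcutaneous comparison. In edgeR's test 0 of these passed. The 4 markers of all leukocytes summed to 619 to 630 CPM in GOF recipients, against 828 to 1027 CPM in WT recipients, and to 1098 to 1276 CPM in subcutaneous RTX lungs, against 788 to 1008 CPM in saline lungs. Of these 4, Ptprc fell in GOF recipients, by 0.84 on the log2 scale (adjusted p = 0.0354 by edgeR), as did Ccr2, 1 of 9 markers of monocytes and interstitial macrophages, by 1.02 (adjusted p = 0.0320 by edgeR). Markers of heart muscle, which can be cut along with lung, summed to 480 to 507 CPM in GOF recipients, against 224 to 328 CPM in WT recipients, and 3 of its 6 genes rose. Xist fell in GOF recipients, by 0.89 on the log2 scale (adjusted p = 0.0158 by edgeR), and had a log2 fold change of 1.99 ± 0.63 (SE; adjusted p = 0.192 by edgeR) after subcutaneous RTX and −1.09 ± 0.38 (SE; adjusted p = 0.327 by edgeR) after intrathecal RTX. The part of these differences in the eosinophil values was not tested. Markers of granule-forming bone marrow progenitors, 5 genes with Mpo and Elane among them, summed to at most 4.83 CPM in any library. That sum was reached in subcutaneous RTX lungs, and most of it was Prtn3, at up to 4.18 CPM there. Mpo was at most 0.273 CPM and Elane at most 0.0493 CPM in any library. Sums in subcutaneous RTX lungs ranged from 1.245 to 4.83 CPM, against 1.19 to 1.95 CPM for Epx, so their ranges overlapped.

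Genes that work beside these 8 were taken from 6 lists. In edgeR's test 0 genes of any of the 6 lists passed in any of the 3 comparisons, each list held 0 to 5 genes with an unadjusted p under 0.05, and the genes named next are those with the smallest p. Among 10 lineage factors, Gata1, which drives eosinophil commitment, was at 0.358 to 0.495 CPM in GOF recipients, against 0.905 to 1.96 CPM in WT recipients (log2 fold change −1.74 ± 0.55, SE; adjusted p = 0.214 by edgeR). In subcutaneous RTX lungs it was at 5.08 to 6.78 CPM, against 2.08 to 3.76 CPM in saline lungs (log2 fold change 1.00 ± 0.29, SE; adjusted p = 0.155 by edgeR). Cebpe, a C/EBP factor of late granulocyte maturation, was at 20.6 to 24.5 CPM in subcutaneous RTX lungs, against 6.68 to 9.93 CPM in saline lungs. The change on the log2 scale was 1.44 ± 0.18 (SE; adjusted p = 0.0947 by edgeR). All 10 factors had positive values in the subcutaneous comparison, 4 of them with an unadjusted p under 0.05 by edgeR, beside 18.2% of all genes tested. In the chimera comparison 4 of the 10 had positive values, against the direction of Gata1. There 4 of the 10 had an unadjusted p under 0.05 by edgeR, beside 11.6% of all genes tested. Positive values were held by 8660 of all 17298 genes tested in the chimera comparison and by 8549 of 17363 in the subcutaneous comparison.

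Of the 14 genes of interleukin-5 receptor signalling, Csf2rb, the common beta chain, was at 71.7 to 75.5 CPM in GOF recipients, against 106 to 150.0 CPM in WT recipients (log2 fold change −0.79 ± 0.17, SE; adjusted p = 0.0686 by edgeR). Csf2rb2, its mouse relative for interleukin-3, had −0.77 ± 0.17 (SE; adjusted p = 0.0791 by edgeR), and the list had 2 positive values among 12 tested. Of these 12, 5 had an unadjusted p under 0.05 by edgeR, beside 11.6% of all genes tested. In subcutaneous RTX lungs Csf2rb was at 164 to 198 CPM, against 116 to 151 CPM in saline lungs (log2 fold change 0.46 ± 0.13, SE; adjusted p = 0.163 by edgeR). The cytokine itself, Il5, singled out after its values were seen, was at 0.0896 to 0.330 CPM in GOF recipients, against 0.287 to 0.333 CPM in WT recipients, and was not tested there. It was at 5.76 to 9.66 CPM in subcutaneous RTX lungs, against 5.14 to 15.0 CPM in saline lungs, with overlap, so that the saline library with the most Il5 exceeded all RTX libraries.

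Among 8 attractants and their receptors, the eotaxin gene Ccl11 was at 6.76 to 7.84 CPM in GOF recipients, against 12.3 to 30.0 CPM in WT recipients (log2 fold change −1.53 ± 0.51, SE; adjusted p = 0.398 by edgeR). In that comparison 0 of the 8 had a positive value, beside 8660 of 17298 genes tested. There 2 of the 8 had an unadjusted p under 0.05 by edgeR, beside 11.6% of all genes tested. Ltb4r1, a leukotriene B4 receptor, had −0.66 ± 0.21 (SE; adjusted p = 0.215 by edgeR). Ccl24, the other eotaxin of mice, was at 222 to 275 CPM in intrathecal RTX lungs, against 131 to 169 CPM in saline lungs (log2 fold change 0.72 ± 0.13, SE; adjusted p = 0.0734 by edgeR), while Ccr3 overlapped between these groups. Adora3, an adenosine receptor, was at 9.09 to 11.5 CPM in subcutaneous RTX lungs, against 5.44 to 6.09 CPM in saline lungs (log2 fold change 0.84 ± 0.17, SE; adjusted p = 0.117 by edgeR). Ccl11 had a log2 fold change of 0.01 ± 0.13 (SE) in that experiment.

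The list of granule relatives held 8 genes with a row in the tables. Rnase2a, a ribonuclease of the same family also called Ear11, was at 1.59 to 2.04 CPM in GOF recipients, against 6.10 to 20.3 CPM in WT recipients (log2 fold change −2.84 ± 0.77, SE; adjusted p = 0.336 by edgeR). Rnase4 and Ang, a pair of ribonuclease genes expressed widely, had −0.57 ± 0.10 (adjusted p = 0.10 by edgeR) and −0.56 ± 0.12 (adjusted p = 0.119 by edgeR) in the subcutaneous experiment (SE), against the direction of the 8 genes. Of the lipid enzymes, Alox15, a lipoxygenase, was at 153 to 245 CPM in subcutaneous RTX lungs, against 52.4 to 109 CPM in saline lungs (log2 fold change 1.24 ± 0.41, SE; adjusted p = 0.241 by edgeR). Of the genes for Siglec-F ligands, Muc5b, an airway mucin, had −0.66 ± 0.15 in GOF recipients (SE; adjusted p = 0.0838 by edgeR), and St3gal1, a sialyltransferase, had 0.30 ± 0.09 in subcutaneous RTX lungs (SE; adjusted p = 0.156 by edgeR).

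Genes whose pattern was most like that of a member were sought among 14027 genes by the root-mean-square difference of log2 deviations from each experiment's mean over the 14 libraries, for the 4 members that varied enough. Genes of 1 library share that library's depth and tissue makeup, and the measure is a description. Nearest to Prg2 were Rnase2a at a difference of 0.275, Arg1, an arginase, at 0.303, and Pdcd1lg2, a ligand of PD-1, at 0.409, all nearer than the closest other member, Ccr3, at 0.488. Nearest to Ccr3 were Rab44, a Rab GTPase, at 0.235, Gapt, an adaptor, at 0.243 and F5, coagulation factor V, at 0.261. Nearest to Ear6 were Cdh17, a cadherin, at 0.270, Pax5, a B cell factor, at 0.315 and Tmem26 at 0.329, with the member Epx at 0.266. Nearest to Il5ra were Ipcef1 at 0.253, St8sia1, a sialyltransferase, at 0.263 and Ikzf3, a lymphoid factor, at 0.271.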

How the data were processed

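Per the labels' protocols, poly(A) RNA was captured on oligo-dT beads for NEBNext Ultra II libraries. The submitters' processing notes name FastQC 0.11.8, Trim Galore 0.6.6, STAR 2.7.5b and Salmon 1.2.1 and the build GRCm38. Neither the annotation release nor the strand setting is given in the sources used here. The authors deposited estimated counts per gene, in 3 tables of 54347 genes, with 24.2% of values not whole, and they were rounded for tests. Each library had its own column. Replicate pairs differed beyond counting noise (chi-square per degree of freedom 9.57 to 23.1).

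CPM is the count per 1e+06 counts of the library. Floors of 3 counts cover counting error only, as the labels mention no molecular identifiers that would mark PCR copies. Experiments had separate edgeR fits (version 4.0.16, R 4.3.3; TMM, filterByExpr with a minimum count of 10 and total of 15, robust quasi-likelihood F test), with Benjamini-Hochberg adjustment over all genes tested and a threshold of 0.05. The procedure had first been run on simulated counts. These had the same spread set for every gene and changes only in genes of higher counts, so that run does not cover genes of few counts. SE is the absolute log2 fold change over the square root of F. Differences of effects were contrasts in joint fits. Alternatives were other scalings and filters, DESeq2 1.42.0, limma 3.58.1 voom, a prior that is not robust, a joint fit of all 14 libraries, a replicate block, a looser threshold of 0.1, and fits without 1 library at a time. A library-state term was added after seeing the data: Rps3a2 above 2 CPM set state A, Hmga2 above 2 CPM without it set state B, and the rest were state C. Exon lengths and positions came from GENCODE M21 and windows before starts from RefSeq (GRCm38.p6). Likeness used log2(CPM + 0.5), members with an SD of at least 0.5 and genes with a mean of at least 1 CPM. List genes were named where past the threshold, or as the 2 with the smallest p per list and comparison, of which a part is printed. The members, lists and tests were chosen with earlier results of these data known.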

Additional observations from a re-analysis of the deposited data

Results flagged for a closer look

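The effects on Prg2 in 2 experiments differed in 1 test. The subcutaneous RTX effect minus the JAK1 GOF effect was 5.19 ± 1.03 (log2, SE; edgeR adjusted p = 0.0481), where 519 of 18074 genes tested (2.87%) passed. Neither effect passed on its own, at adjusted p = 0.168 for subcutaneous RTX and 0.0594 for JAK1 GOF in edgeR's test. The GOF effect rests on 9 and 3 counts in GOF recipients, and Prg2 passed the filter of the chimera fit only through the WT libraries. Prg2 was higher in 3 of 3 subcutaneous RTX libraries than in either saline library, and lower in 2 of 2 GOF libraries than in either WT library. The difference ranged between 4.11 and 6.01 over 19 alternatives, and 10 of them called it. Limma voom and the fit with the replicate block did not, nor did 7 of the 9 fits that left out 1 library.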

How the results depend on the processing

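Over all alternatives, intrathecal calls among the 8 genes stayed at 0, as did calls on the subcutaneous minus the intrathecal effect. Counts over all genes tested stand beside the others. For GOF against WT recipients (0, beside 124 of all genes), total counts alone gave 1 beside 157, no low-count filter 5 beside 807, DESeq2 3 beside 309, an adjusted p of 0.1 gave 1 beside 286, the library-state term 1 beside 177, and leaving out a library 0 to 5. For subcutaneous RTX against saline (0 beside 0), no filter gave 2 beside 807, DESeq2 4 beside 744, the state term 1 beside 184, and leaving out a library 0 to 6. For the subcutaneous minus the GOF effect (1 beside 519), total counts gave 2 beside 546, no filter 8 beside 2447, 1 CPM in 2 libraries 2 beside 552, DESeq2 6 beside 1395, limma voom 0 beside 268, all 14 libraries in 1 fit 4 beside 1000, an adjusted p of 0.1 gave 5 beside 1505, the state term 4 beside 723, and leaving out a library 0 to 5. For the intrathecal minus the GOF effect (0 beside 6), no filter gave 6 beside 932, DESeq2 2 beside 289, and leaving out a library 0 to 2. The cause was not tested. Where leaving out a library left 1 sample in a group, that sample was assumed to vary like the others.

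Same-numbered samples showed correlations of deviations between −0.128 and 0.038. In a group of 2 libraries the deviations are mirror images, so these values cannot decide whether replicate numbers mark a shared mouse or day. With the replicate block, 1 gene (Ccr3) was called in GOF recipients beside 123 genes and 0 in the subcutaneous minus the GOF effect beside 43. The block left the other 4 counts as they were.

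Counts over all genes moved too. Leaving out a library gave 83 to 919 calls in the chimera comparison, 19 to 40 in the intrathecal and 0 to 871 in the subcutaneous one.

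Of the 345 member fold changes under alternatives, 13 changed sign, and these had no call. In the intrathecal comparison Siglecf was at −0.002 with total counts, −0.044 with voom, between −0.27 (without RTX library 1) and 0.21 with 1 library left out (−0.0455 without saline library 1), and −0.55 with the state term, and Ccr3 at −0.018 with voom, between −0.34 (without RTX library 1) and 0.30 with 1 library left out (−0.069 without saline library 1), and −0.27 with the state term. With that term Prg2 was at −0.094, Ear2 at −0.13 and Il5ra at −0.35 there. In the subcutaneous comparison Ear1 ranged between −0.061 (without RTX library 2) and 0.55 with 1 library left out.

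Groups of 2 and 3 libraries and counts under 20 (Epx outside subcutaneous RTX lungs, Prg2 in both GOF libraries, Il5ra in GOF library 1) limit what can be told apart. Ear1 and Ear2 share sequence, and levels across the 3 tables have no common control.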
